A study of Mus musculus with 16 samples.

Results

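The genes described here are 9 T cell receptor and T lineage genes, chosen by name from a table of RNA-Seq expression values for mouse seminal vesicles (SVs), the male accessory glands that secrete most of the seminal fluid. They are Cd3d, Cd3e, Cd3g, Cd247, Cd4, Cd8a, Cd8b1, Lck and Zap70, 9 of the 31274 genes in the table. All 9 were listed with a value above 0 in every sample. The table holds 16 SV samples from C57BL/6 males collected at week 5, in 4 groups of 4. WT-veh were wild-type (WT) mice injected with corn oil on days 1 to 5 of life (the day of birth being day 1), and WT-DES were WT mice injected subcutaneously on the same days with diethylstilboestrol (DES, a synthetic oestrogen) at 2 µg per pup per day. αERKO-veh and αERKO-DES were mice without a functional Esr1 (which encodes the oestrogen receptor ERα) under the same treatments; the loss is present from conception and in all tissues. The study's methods describe RNA from individual mice for the WT-veh, αERKO-veh and αERKO-DES groups and from 3 pools of mice for WT-DES, whereas 4 WT-DES samples were deposited, so what a WT-DES sample stands for (1 mouse or a pool) is not settled here.

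A T cell recognises antigen with a receptor made of an α and a β chain, or a γ and a δ chain, whose genes are assembled from segments in each developing T cell. The receptor chains have no signalling part of their own; they sit in a complex with the CD3 chains and the ζ chain (Cd247), which carry the signal into the cell. CD4 and CD8 are coreceptors that bring the kinase Lck to the receptor, Lck phosphorylates the CD3 and ζ chains, and the kinase Zap70 binds them and passes the signal on. In RNA of a whole gland such transcripts are usually read as coming from the white blood cells that the tissue holds, a source that was not measured here.

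Values are FPKM (fragments mapped to a gene, scaled for transcript length and for the fragments of the library), a level that can be set side by side between genes. A gene was called changed where the adjusted p of a limma model on log2(FPKM + 1) was no higher than 0.05, group means differed by a factor of 1.5 or more and 1 of the groups compared had a mean over 1; log2 changes are on the log2(FPKM + 1) scale, on which low genes appear to change less than they do. Adjusted p-values are Benjamini-Hochberg values over 15988 genes, those whose mean FPKM exceeded 1 in some group. All 9 T cell genes passed that filter, but Cd4, Cd8a and Cd8b1 passed only through WT-DES, the group in which they were high. In whole-gland RNA, fewer cells of a type and less RNA per cell cannot be told apart.

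Facts of the whole table that bear on the results are these. Esr1 ranged over 2.81 to 4.55 FPKM in WT-veh and over 8.74 to 19.64 in WT-DES; with vehicle it was at 1.30 to 1.75 in αERKO and with DES at 0.91 to 1.64, so every αERKO sample lay below every WT sample. Sequencing depth is not known from FPKM. The totals that follow include the receptor segment TRBV16*01, listed at 54959 FPKM in WT-DES sample 3 and 13404 in sample 4. The FPKM of all genes added up to 375207 to 437619 per sample in WT-DES and to 590446 to 652708 in WT-veh. Over the same samples 8 seminal vesicle secretory genes, which define the tissue, added up to 2436 to 7951 FPKM in WT-DES and to 49597 to 57994 in WT-veh, and all 8 were called lower. Of 5 epithelial genes, 4 were called lower (median log2 change -0.73), with sums of 569.9 to 785.0 FPKM in WT-DES and 1025 to 1126 in WT-veh; this count was 2 with median-ratio scaling or equal totals and 1 after quantile normalization. The part of these differences in the results below was not tested.

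Of the 9 genes, 7 matched 10 entries of RefSeq promoter windows (GRCm38.p6, each 300 bases around a start). The CD3 genes lie in a cluster on chromosome 9 (GRCm38), with Cd3g at chr9:44969572-44980431 on the minus strand, Cd3d at chr9:44981786-44987339 on the plus strand and Cd3e at chr9:44998740-45009627 on the minus strand. Cd3g and Cd3d are transcribed away from each other across a gap of 1354 bases, and 11400 bases separate Cd3d from Cd3e. On chromosome 6, Cd8b1 (chr6:71322788-71337494) and Cd8a (chr6:71373427-71379173) lie on the plus strand 35932 bases apart, and Cd4 (chr6:124864692-124888221) lies on the minus strand. Zap70 (chr1:36761798-36782818) and Cd247 (chr1:165788681-165877277) are on the plus strand of chromosome 1, and Lck (chr4:129548344-129573641) is on the minus strand of chromosome 4. The windows of the CD3 genes are shown because these genes are neighbours, although all 9 genes had a like pattern over the WT-DES samples. The Cd8a window is shown because Cd8a was the member whose change was least secure. Each reads 5′ to 3′ on the strand of its gene, and capitals mark the core letters of ETS factors (GGAAG) and RUNX factors (TGNGGT), families with members that act in T cells, on either strand.
Cd3g: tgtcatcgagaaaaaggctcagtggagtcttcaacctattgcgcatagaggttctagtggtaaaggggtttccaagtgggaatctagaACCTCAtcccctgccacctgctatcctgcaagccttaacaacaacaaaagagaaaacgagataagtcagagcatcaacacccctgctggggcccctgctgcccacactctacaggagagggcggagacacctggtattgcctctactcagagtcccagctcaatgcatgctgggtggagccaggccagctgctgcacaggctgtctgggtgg
Cd3d: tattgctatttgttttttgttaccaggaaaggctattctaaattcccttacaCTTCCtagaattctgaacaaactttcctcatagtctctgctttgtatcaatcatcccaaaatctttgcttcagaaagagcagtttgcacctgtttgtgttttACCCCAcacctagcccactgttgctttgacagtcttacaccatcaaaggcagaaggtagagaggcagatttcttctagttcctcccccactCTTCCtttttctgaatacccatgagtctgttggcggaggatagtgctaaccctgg
Cd3e: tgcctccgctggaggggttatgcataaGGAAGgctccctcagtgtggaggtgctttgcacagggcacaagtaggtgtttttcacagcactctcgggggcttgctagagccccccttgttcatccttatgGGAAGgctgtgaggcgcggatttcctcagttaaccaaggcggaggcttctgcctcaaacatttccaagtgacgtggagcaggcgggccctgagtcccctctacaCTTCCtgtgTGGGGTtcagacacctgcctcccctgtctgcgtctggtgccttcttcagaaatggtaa
Cd8a: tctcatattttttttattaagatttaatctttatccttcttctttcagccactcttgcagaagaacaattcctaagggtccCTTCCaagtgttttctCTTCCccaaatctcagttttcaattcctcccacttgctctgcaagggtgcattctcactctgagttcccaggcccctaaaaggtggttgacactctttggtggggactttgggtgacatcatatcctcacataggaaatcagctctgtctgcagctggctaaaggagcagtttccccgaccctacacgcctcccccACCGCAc
No ETS match overlapped a RUNX match in these windows. The Cd3e window (chr9:45009562-45009861) held 3 ETS and 1 RUNX core, the Cd3d window (chr9:44981536-44981835) and the Cd8a window (chr6:71373177-71373476) held 2 and 1 each, and the Cd3g window (chr9:44980382-44980681) held 1 RUNX core and no GGAAG. Over the 10 windows of the 7 genes, 8 held GGAAG and 7 held TGNGGT, against 71.4% and 45.8% of all 32851 windows of that length. The E-box CANCTG stood in 9 of the 10 windows and in 51.4% of all windows, and the TCF/LEF letters CTTTGA in 3 of the 10 and in 16%. A match is a description of letters and not a binding site.

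Among the signalling chains of the receptor complex, Cd3g was the most abundant and all 4 were higher with DES in WT. Cd3g, the γ chain of CD3, was at 4.07, 2.35, 2.90 and 2.21 FPKM in WT-veh samples 1 to 4 and at 7.20, 31.65, 26.78 and 8.72 FPKM in WT-DES samples 1 to 4. Cd3d, the δ chain, was at 1.83, 0.65, 0.88 and 0.71 FPKM in WT-veh and at 2.90, 14.91, 13.73 and 4.05 FPKM in WT-DES. For both genes every WT-DES sample lay above every WT-veh sample, with samples 2 and 3 far above samples 1 and 4. The log2 change was 2.10 (SE 0.36, adjusted p = 8.7e-05) for Cd3g and 2.07 (SE 0.37, adjusted p = 0.000145) for Cd3d, with mean FPKM 6.45-fold and 8.74-fold higher.

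Cd3e, the ε chain that pairs with the γ and δ chains, was at 1.37, 1.27, 1.03 and 0.83 FPKM in WT-veh and at 2.87, 12.55, 11.19 and 3.76 FPKM in WT-DES. The groups did not overlap, and the same WT-DES samples were high. Its log2 change was 1.81 (SE 0.31, adjusted p = 0.000105). Cd247, the ζ chain, which natural killer (NK) cells also use, was at 1.80, 1.46, 0.66 and 1.34 FPKM in WT-veh and at 3.83, 10.44, 11.83 and 5.53 FPKM in WT-DES. It had the narrowest spread within WT-DES of the 9 genes, the highest sample being 3.09 times the lowest, and a log2 change of 1.86 (SE 0.27, adjusted p = 1.61e-05).

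The 2 kinases followed the CD3 chains. Lck, the kinase that starts receptor signalling and is also present in NK cells, was at 4.16, 2.42, 2.34 and 2.81 FPKM in WT-veh and at 6.46, 28.95, 28.35 and 8.26 FPKM in WT-DES. Zap70, the kinase recruited to the phosphorylated chains, was at 1.45, 1.05, 0.71 and 1.51 FPKM in WT-veh and at 2.83, 10.75, 10.01 and 3.59 FPKM in WT-DES. Neither gene had a WT-DES sample within the WT-veh range. The log2 change was 2.02 (SE 0.36, adjusted p = 0.000143) for Lck and 1.68 (SE 0.31, adjusted p = 0.00016) for Zap70.

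The coreceptors held both the largest and the smallest log2 change of the 9 genes. Cd4, the coreceptor of helper T cells that some macrophages and dendritic cells also carry, was at 0.55, 0.37, 0.43 and 0.65 FPKM in WT-veh and at 3.26, 15.42, 17.37 and 5.42 FPKM in WT-DES. Its lowest WT-DES sample thus lay well above its highest WT-veh sample. The log2 change was 2.67 (SE 0.34, adjusted p = 5.41e-06), and the mean FPKM was 20.7-fold higher.

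Cd8a, the coreceptor chain of cytotoxic T cells that a subset of dendritic cells also makes, was at 1.57, 0.54, 0.44 and 0.33 FPKM in WT-veh and at 0.44, 8.91, 7.03 and 1.26 FPKM in WT-DES. Here the groups overlapped: WT-DES samples 2 and 3 lay above all WT-veh samples, sample 4 lay below WT-veh sample 1, and sample 1 equalled WT-veh sample 3. The log2 change was 1.27 (SE 0.47, adjusted p = 0.0224). That call was lost without WT-veh sample 3 (adjusted p = 0.0513), without WT-veh sample 4 (adjusted p = 0.0557), without WT-DES sample 2 (log2 change 0.84, adjusted p = 0.0859) and without WT-DES sample 3 (adjusted p = 0.0820), as well as in a fit of only the groups compared (adjusted p = 0.0927) and after quantile normalization (adjusted p = 0.0804).

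Cd8b1, the chain that pairs with Cd8a on most cytotoxic T cells, was at 1.05, 0.27, 0.19 and 0.18 FPKM in WT-veh and at 0.83, 9.05, 7.99 and 1.46 FPKM in WT-DES. WT-DES sample 1 lay below WT-veh sample 1 and the other 3 WT-DES samples lay above all of WT-veh. The log2 change was 1.70 (SE 0.43, adjusted p = 0.0023), and it was 2.90 with a pseudocount of 0.1 in place of 1.

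**Figure D1:**
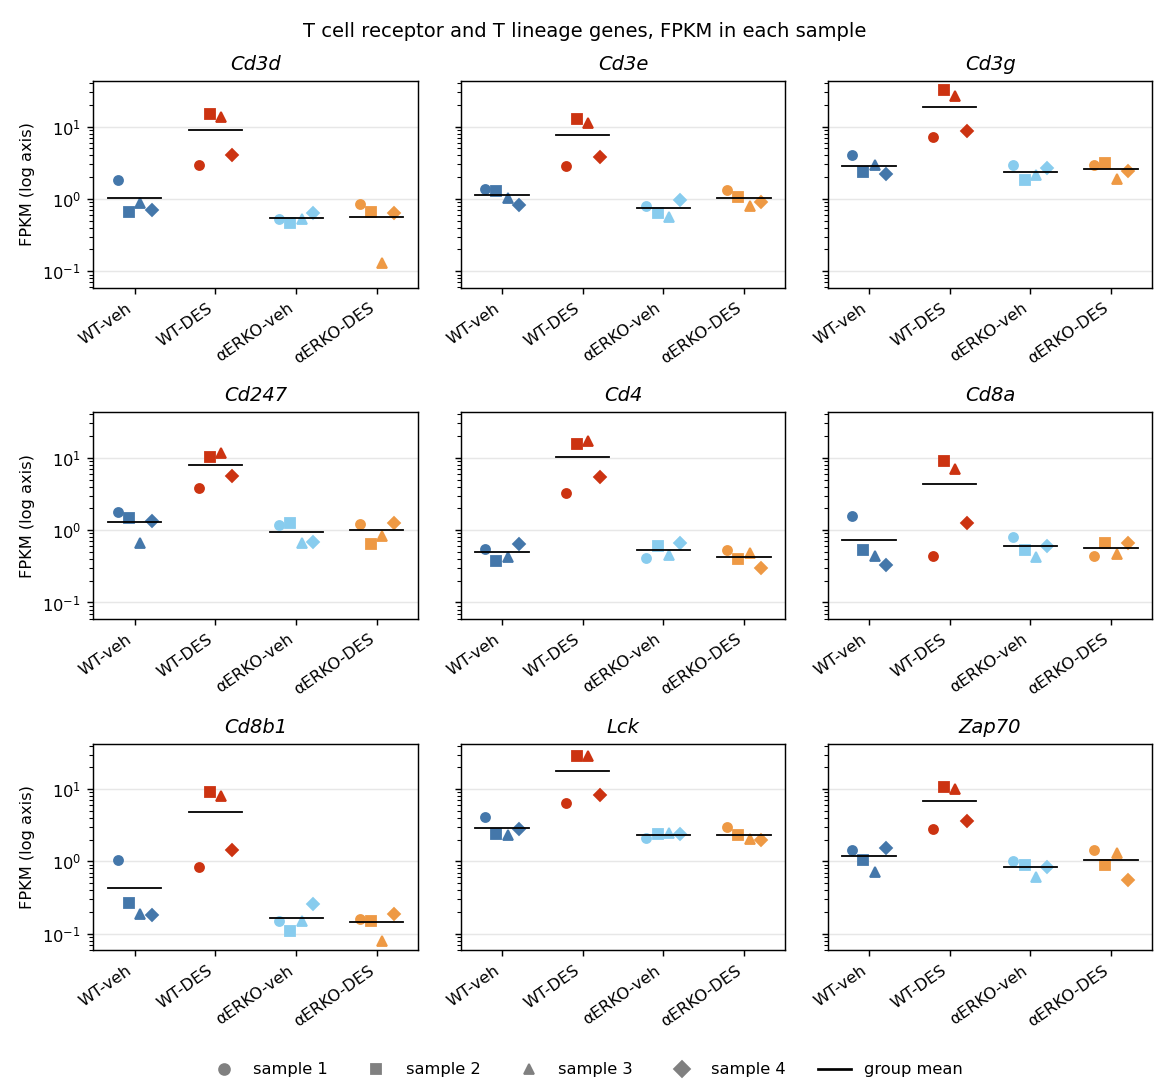
FPKM of the 9 T cell genes in each sample, on a log axis shared by all panels, by group; each symbol is 1 sample, numbered by its shape, and the line is the mean of the group's 4 samples. WT-DES samples 2 and 3 stand highest for every gene, while for Cd8a the 4 WT-DES samples run from 0.44 to 8.91 FPKM and overlap WT-veh.

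In all, 9 of 9 genes were called higher in WT-DES than WT-veh, where 28.9% of all tested genes were called higher and 23.9% lower. The median log2 change was 1.86 over the 9 genes and -0.01 over all genes tested. For 7 of the 9 genes, all but Cd8a and Cd8b1, every WT-DES sample lay above every WT-veh sample, as it did for 32.7% of all tested genes. The same 7 genes were also higher in every WT-DES sample than in any of the 12 other samples, as were 24.2% of all tested genes. Leaving out WT-DES sample 2 or sample 3, the highest of the group, gave 8 calls, with Cd8a lost (adjusted p = 0.0859 and 0.0820), and leaving out sample 1 or sample 4 gave 9.

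The 4 WT-DES samples differed from each other more than they did for most genes. For all 9 T cell genes samples 2 and 3 were the 2 highest, sample 4 came next and sample 1 was lowest, an order found for 15.2% of the 15710 tested genes with a value above 0 in each of these samples. The highest sample was 3.09 to 20.3 times the lowest over the 9 genes (median 4.48), against a median of 1.35 over all genes. Relative to the WT-veh mean, sample 2 was 7.94-fold (Cd247) to 30.8-fold (Cd4) higher with a median of 11.2, and sample 3 was 8.48-fold (Zap70) to 34.7-fold (Cd4) higher with a median of 9.76. Sample 4 ranged from 1.75-fold (Cd8a) to 10.8-fold (Cd4) with a median of 3.34. Sample 1 had a median of 2.50 and ranged from 0.611 (Cd8a) to 6.52 (Cd4), so Cd8a alone of the 9 was below the WT-veh mean there.

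**Figure D2:**
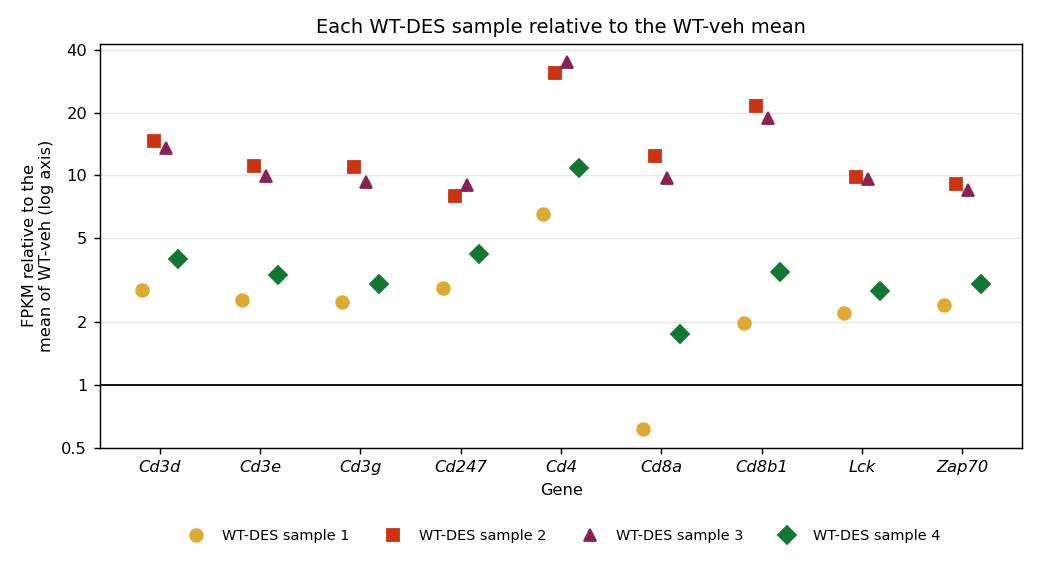
FPKM of each T cell gene in each WT-DES sample divided by the mean FPKM of the 4 WT-veh samples, on a log axis; the line marks 1. Samples 2 and 3 lie at 7.94 or above for every gene, and Cd4 is the highest gene in every sample.

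The 3 CD3 chains kept nearly fixed proportions in WT-DES although their levels did not. The ratio of Cd3g to Cd3e was 2.32 to 2.52 over the 4 WT-DES samples, and that of Cd3d to Cd3e was 1.01 to 1.23. Genes on other chromosomes were similarly fixed, with Lck to Cd3e at 2.20 to 2.53 and Zap70 to Cd3e at 0.86 to 0.99. Cd247 was less fixed, at 0.83 to 1.47 of Cd3e. In WT-veh, where FPKM were low, the same ratios were 1.85 to 2.97, 0.51 to 1.34, 1.91 to 3.39, 0.69 to 1.82 and 0.64 to 1.61. After subtracting group means, the correlation between 2 of the 9 genes over the 16 samples was 0.76 to 0.99 (median 0.93 over 36 pairs), a description of libraries that all 9 genes share.

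The balance of the coreceptors was not the same in all samples. The FPKM ratio of Cd4 to Cd8a was 0.35, 0.69, 0.98 and 1.97 in WT-veh samples 1 to 4 and 7.41, 1.73, 2.47 and 4.30 in WT-DES samples 1 to 4. The ratio was lowest in WT-DES in the samples with the highest FPKM, and only WT-DES sample 2 lay within the WT-veh range. In αERKO it was 0.51 to 1.13 with vehicle and 0.45 to 1.23 with DES. The ratio of Cd8a to Cd8b1 was 0.53 to 0.98 in WT-DES and 1.5 to 2.32 in WT-veh; in αERKO it was 2.35 to 5.40 with vehicle and 2.75 to 5.88 with DES. Cd8b1 was therefore above Cd8a only in WT-DES, with no overlap with the other groups, but the αERKO ratios rest on Cd8b1 values of 0.08 to 0.26 FPKM. These ratios were not tested.

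**Figure D3:**
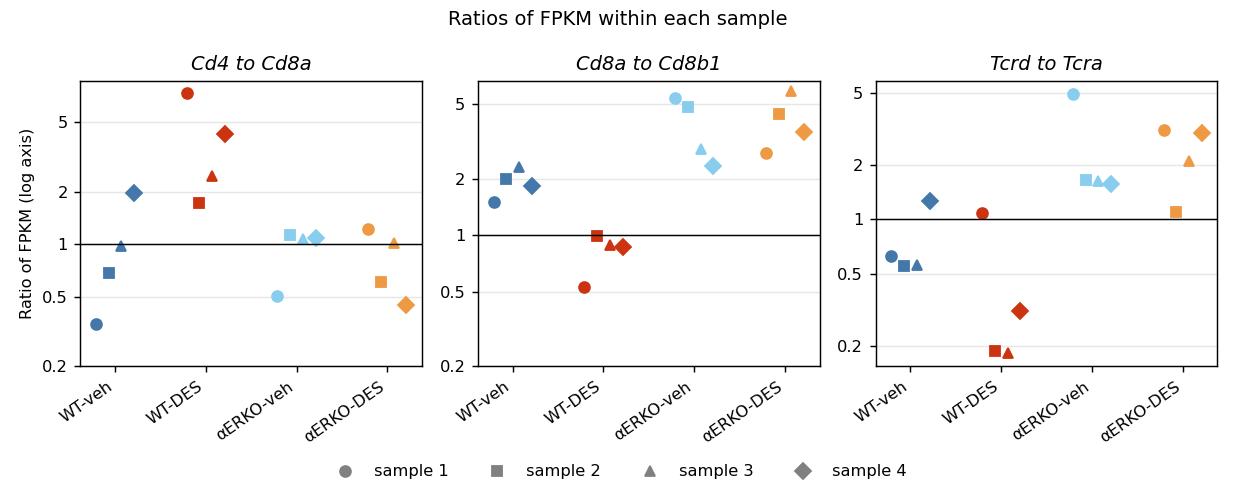
Ratio of FPKM of Cd4 to Cd8a, of Cd8a to Cd8b1 and of Tcrd to Tcra in each sample, on log axes, by group; the line marks 1 and each symbol is 1 sample. WT-DES samples lie at 1.73 to 7.41 for Cd4 to Cd8a and at 0.53 to 0.98 for Cd8a to Cd8b1, and WT-DES sample 1 stands apart from samples 2 to 4 for Tcrd to Tcra.

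The receptor chains themselves are listed under locus names in the table, outside the 9 genes. They were looked at after the values were seen. If their gene models overlap with segment entries, their reads may be split, but the annotation of the table is not known. Tcra, the α chain locus, was at 4.01, 1.31, 1.76 and 1.07 FPKM in WT-veh and at 6.23, 37.93, 43.70 and 12.11 FPKM in WT-DES (log2 change 2.82, SE 0.48, adjusted p = 8.29e-05). Tcrb, the β chain locus, was at 0, 1.39, 1.51 and 1.73 FPKM in WT-veh and at 1.31, 57.89, 65.20 and 40.06 FPKM in WT-DES (log2 change 3.62, SE 0.77, adjusted p = 0.000646). For both, samples 2 and 3 were the highest, as for the CD3 genes, but for Tcrb sample 4 was also high and sample 1 lay within the WT-veh range. A further row for each chain did not repeat this: TCR-beta chain was at 19.69, 62.82, 68.94 and 14.44 FPKM in WT-DES and at 2.83 to 10.29 in WT-veh (log2 change 2.46, SE 0.46, adjusted p = 0.000215), and TCR-alpha chain was at 3.84, 18.21, 23.53 and 1.82 FPKM in WT-DES and at 0 to 0.85 in WT-veh (log2 change 2.73, SE 0.57, adjusted p = 0.000531). In both of these rows sample 4 was the lowest of WT-DES, and no WT-DES sample lay within the WT-veh range. Tcrd, the δ chain locus, was at 2.52, 0.72, 0.98 and 1.36 FPKM in WT-veh and at 6.75, 7.06, 7.94 and 3.78 FPKM in WT-DES (log2 change 1.64, SE 0.21, adjusted p = 4.95e-06). Unlike the 9 T cell genes, Tcrd was nearly as high in WT-DES sample 1 as in samples 2 and 3. The ratio of Tcrd to Tcra was 1.08 in WT-DES sample 1 and 0.18 to 0.31 in the other 3, against 0.55 to 1.27 in WT-veh. Tcrg, the γ chain locus, was at 3.39, 9.10, 6.67 and 4.32 FPKM in WT-DES and at 1.40 to 2.55 FPKM in WT-veh (log2 change 1.18, SE 0.24, adjusted p = 0.000385). In αERKO, Tcrb lay at 0 to 0.61 FPKM with vehicle and at 0.93 to 1.42 with DES, without overlap. Its log2 change there was 0.76 by limma (SE 0.77, adjusted p = 0.565). The other receptor rows named here overlapped between these groups, and none of the rows was called.

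Single receptor segments had 40 entries, 10 of them with a mean FPKM above 1 in a group. The number of entries above 0 was 18, 33, 32 and 27 in WT-DES samples 1 to 4, against 4 to 7 in WT-veh and, in αERKO, 7 to 11 with vehicle and 4 to 8 with DES. More segments were thus detected in every WT-DES sample than in any other sample, as were more genes of the whole table (20082 to 20546 above 0 in WT-DES and 18793 to 19713 in the other samples). Of the 4 with the highest mean FPKM, TRBV16*01 was listed at 54959 in WT-DES sample 3, at 13404 in sample 4 and at 0 in the other 14 samples, and Tcra-V2 was listed at 81 in WT-DES sample 1 and at 0 elsewhere. FPKM of this size for a single segment stand far above those of the loci that hold them and were not used further. TCRBVbeta5.1/Jbeta1.5 was at 2.68, 11.43, 11.19 and 3.03 FPKM in WT-DES and at 0 to 0.67 in WT-veh, and Tcrg-C was at 1.33 to 3.55 and at 0.43 to 1.12.

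The question asked of the αERKO mice was which changes need ERα. Without a functional ERα, none of the 9 genes was called changed by DES. In αERKO-veh samples 1 to 4, Cd3e was at 0.81, 0.64, 0.56 and 0.97 FPKM, and in αERKO-DES samples 1 to 4 at 1.34, 1.08, 0.79 and 0.92. Cd3g was at 2.92, 1.82, 2.11 and 2.64 FPKM with vehicle and at 2.92, 3.11, 1.89 and 2.46 with DES. Cd3d was at 0.52, 0.47, 0.53 and 0.63 FPKM with vehicle and at 0.84, 0.65, 0.13 and 0.64 with DES. For each of these chains the groups overlapped, and αERKO-DES sample 3 was the lowest for Cd3d. Cd247 was at 1.17, 1.25, 0.67 and 0.69 FPKM with vehicle and at 1.20, 0.65, 0.84 and 1.27 with DES.

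Lck was at 2.10, 2.42, 2.47 and 2.38 FPKM in αERKO-veh and at 3.03, 2.32, 2.05 and 2.00 in αERKO-DES. Zap70 was at 1.02, 0.88, 0.60 and 0.84 FPKM with vehicle and at 1.43, 0.88, 1.29 and 0.55 with DES. The kinases, like the CD3 chains, overlapped between the treatments. Cd4 was at 0.41, 0.60, 0.46 and 0.66 FPKM in αERKO-veh and at 0.54, 0.40, 0.48 and 0.30 in αERKO-DES, while Cd8a was at 0.81, 0.53, 0.43 and 0.61 and at 0.44, 0.66, 0.47 and 0.67. Cd8b1 was the lowest of the 9 in both groups, at 0.15, 0.11, 0.15 and 0.26 FPKM with vehicle and at 0.16, 0.15, 0.08 and 0.19 with DES.

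Between αERKO-DES and αERKO-veh, 0 of 9 genes were called, where 1.49% of all tested genes were, and the limma test gave 0 genes with an unadjusted p under 0.05. The log2 changes ran from -0.10 (Cd4) to 0.22 (Cd3e) with adjusted p of 0.702 to 1. The 95% intervals of the 9 changes were widest for Cd8a, from -1.02 to 0.96, and narrowest for Cd247, from -0.53 to 0.60. For Cd3e the interval reached 0.89 and for Cd4 0.63, so changes within each gene's own interval cannot be told from none here.

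The difference between the genotypes in the change with DES was tested directly, as an interaction term. It was called for 8 of 9 genes, where 29.6% of all tested genes were called higher in this direction. The largest was Cd4 with a log2 difference of 2.77 (SE 0.48, adjusted p = 0.000131), and Cd3d, Cd3g and Lck were at 2.06, 2.01 and 2.03. Cd247 was at 1.82, Cd8b1 at 1.73 (3.02 with a pseudocount of 0.1), Cd3e at 1.59 and Zap70 at 1.55. The 9th gene, Cd8a, had a log2 difference of 1.30 (SE 0.66, adjusted p = 0.0879); it was called without WT-DES sample 1 (log2 difference 1.80, adjusted p = 0.00613) and without WT-DES sample 4 (log2 difference 1.58, adjusted p = 0.0443) as well as with sample weights (log2 difference 1.73, adjusted p = 0.00239), and it was 0.87 without WT-DES sample 2. After quantile normalization 5 of 9 genes were called, with adjusted p of 0.0841 for Cd3e, 0.0767 for Cd8b1 and 0.0887 for Zap70.

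**Figure D4:**
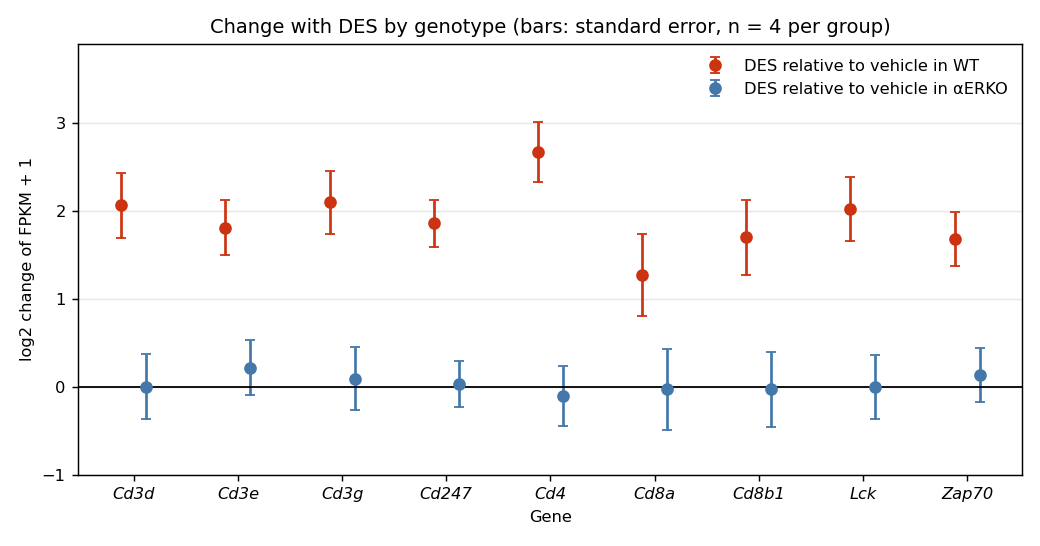
Log2 change of FPKM + 1 with DES relative to vehicle for each T cell gene, in WT and in αERKO, with 4 samples a group. Points are the fitted changes and bars their standard errors, which rest on a spread shared by all groups. The WT points lie between 1.27 and 2.67 and the αERKO points between -0.10 and 0.22.

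Set against WT-DES, 9 of 9 genes were lower in αERKO-DES, with log2 differences of -2.74 (Cd4) to -1.37 (Cd8a, adjusted p = 0.0154), where 29.6% of all tested genes were lower. This comparison shares its WT-DES samples with the one above. With a pseudocount of 0.1, the difference of Cd8b1 moved from -1.97 to -3.74. The Cd8a call was lost without WT-DES sample 2 (log2 difference -0.93, adjusted p = 0.0592), without sample 3 (adjusted p = 0.0586), in a fit of only these groups (adjusted p = 0.0616) and after quantile normalization (adjusted p = 0.0948).

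The loss of ERα alone gave no called change. Between αERKO-veh and WT-veh 0 of 9 genes were called, where 7.12% of all tested genes were. The limma log2 differences ran from -0.36 (Cd3d) to 0.03 (Cd4), with 0 unadjusted p under 0.05 and 95% intervals reaching from -1.16 to 0.93. Between αERKO-DES and WT-veh, 0 of 9 genes were again called against 3.18% of all tested genes, with log2 differences of -0.35 to -0.06 and 0 unadjusted p under 0.05. By mean FPKM WT-DES was the highest group for every gene. Among the other 3 groups, every pair overlapped for 8 of the 9 genes; the exception was Cd3d, whose 4 αERKO-veh samples (0.47 to 0.63 FPKM) all lay just below the 4 WT-veh samples (0.65 to 1.83), with a ratio of means of 0.528 and an adjusted p of 0.518. Such a separation was found for 17.1% of all tested genes.

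Genes that work beside the receptor were taken from lists of T cell pathways chosen by function. With DES in WT, 28.9% of all tested genes were called higher and 23.9% lower, the background for each list below. Signalling and costimulation had 29 genes, of which 27 were tested; with DES in WT, 23 were higher, 1 was lower and 3 were not called, with a median log2 change of 1.56. Lat, the scaffold that Zap70 phosphorylates, was at 4.83, 21.05, 20.38 and 5.58 FPKM in WT-DES and at 0.58 to 1.82 in WT-veh (log2 change 2.50). Cd28, the main costimulatory receptor, changed by 1.12 on the log2 scale. Ptprc (CD45), the phosphatase of all white blood cells, was at 22.09, 43.53, 41.73 and 21.53 FPKM in WT-DES and at 1.77 to 3.8 in WT-veh. The ratio of Cd3e to Ptprc was 0.13 to 0.29 in WT-DES and 0.36 to 0.50 in WT-veh, while in αERKO it was 0.19 to 0.35 with vehicle and 0.33 to 0.63 with DES. That of Cd4 to Ptprc overlapped, at 0.15 to 0.42 in WT-DES and 0.14 to 0.37 in WT-veh. These ratios were not tested.

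The member of that list that fell was Skap1, an adaptor that couples the receptor to adhesion. It fell by 2.05 on the log2 scale, with 24.25 to 32.47 FPKM in WT-veh and 3.91, 8.32, 8.21 and 6.05 FPKM in the WT-DES samples. Its WT-veh level was far above that of Cd3e in the same samples (0.83 to 1.37 FPKM). Csk and Bcl10, the most abundant of the list, were not called: their log2 changes were -0.23 (adjusted p = 0.0622) and -0.11 (adjusted p = 0.131).

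Of 11 transcription factors of the T lineage tested, 5 were higher, 4 were lower and 2 were not called (median log2 change -0.10). Of all tested genes, 28.9% were called higher and 23.9% lower, so for so few genes these counts do not set the list apart. Bcl11b, which commits precursors to the T lineage, changed by 0.74 and Runx3, a factor of CD8 T cells, by 1.61 on the log2 scale. The factors that fell were Tcf7 (by 1.18), Gata3 (by 1.25), Satb1 (by 0.78) and Zbtb7b (by 1.16), each known from T cells. In WT-veh, Gata3 was at 107.99 to 130.63 FPKM, Zbtb7b at 60.72 to 66.49, Tcf7 at 45.17 to 62.02 and Satb1 at 18.53 to 28.29, levels far above those of the CD3 genes in the same samples. Within WT-DES, Tcf7 was at 11.05, 34.50, 26.29 and 21.74 FPKM, and so had the order of the 9 T cell genes while being lower than in WT-veh throughout.

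Helper and regulatory T cell genes numbered 15, of which 10 were tested; 9 were higher and 1 was lower (median log2 change 1.02). Tbx21, the master factor of type 1 helper cells, was at 1.11, 4.64, 3.98 and 1.30 FPKM in WT-DES and at 0.16 to 0.42 in WT-veh, and Ifng, their main cytokine, was at 0.39, 4.18, 3 and 0.86 and at 0.04 to 0.09. The log2 change was 1.43 for Tbx21 and 1.36 for Ifng. Foxp3, the factor of regulatory T cells, had a mean FPKM under 1 in every group and was not tested, being at 0.42, 1.26, 0.87 and 0.56 FPKM in WT-DES and at 0.01 to 0.06 in WT-veh. Bcl6, the factor of follicular helper cells, changed by 0.89 on the log2 scale.

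Among cytotoxic lymphocyte genes, 8 of the 9 tested were higher, 0 were lower and 1 was not called (median log2 change 1.52; 10 listed). Prf1, which encodes the pore-forming perforin, changed by 1.17 on the log2 scale, Nkg7, a granule protein, by 1.92, and the chemokine Ccl5 by 1.58. The exception was the protease Gzmb, at 2.31, 15.25, 12.05 and 4.27 FPKM in WT-DES and at 2.85 to 4.38 in WT-veh (log2 change 0.75, adjusted p = 0.073). Eomes, a factor of cytotoxic cells, had a mean FPKM under 1 in every group and was not tested. It was at 0.10, 1.11, 1.11 and 0.40 FPKM in WT-DES.

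Genes of naive and memory T cell trafficking rose in 8 of 9 cases, with a median log2 change of 1.94. Il7r, the receptor for a survival cytokine, changed by 2.12 on the log2 scale, Ccr7, a chemokine receptor, by 2.03, Cd44, an adhesion receptor, by 1.94 and Itgae, an integrin of tissue-resident T cells, by 0.77. Klf2 had a log2 change of -0.39 (adjusted p = 0.063). Klf2 was also the pathway gene that was called between αERKO-DES and αERKO-veh (log2 change 0.77, adjusted p = 0.0412), 1 of 66 tested over the 5 lists, where 1.49% of all tested genes were called. Ikzf2 and Cd44 were called higher in αERKO-veh relative to WT-veh (2 of 66, against 7.12% of all tested genes), and Fyn was called lower in αERKO-DES relative to WT-veh (1 of 66, against 3.18%).

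Without a minimum on FPKM, genes could not enter through WT-DES alone. Higher then were 25 of 29 signalling genes, 13 of 15 helper and regulatory genes, 9 of 10 cytotoxic genes and 8 of 9 trafficking genes. So were 5 of 11 transcription factors, where 27.4% of all 22638 genes then tested were higher. Of the transcription factors 4 were lower, as were 4117 of all 22638 genes. Genes of developing thymocytes were below 1 FPKM in every sample. The recombinase genes Rag1 and Rag2 were at 0 to 0.09 FPKM in all 16 samples, Ptcra, the pre-T cell receptor α chain, was at 0 to 0.13, and Dntt, which adds bases at segment joints, was at 0.15, 0.65, 0.47 and 0.21 FPKM in WT-DES and at 0 to 0.02 in the other groups. Without the minimum, Dntt was called higher with DES in WT (log2 change 0.43, adjusted p = 0.000334), as 1 of the 5 genes of this list. Arpp21, the most abundant of the list, was at 0.03, 0.67, 0.83 and 0.42 FPKM in αERKO-veh and at 0 to 0.2 in the other groups.

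Marker genes of other immune cells rose in WT-DES together with the T cell genes. All tested genes of the NK cell list (5 of 6 listed, median log2 change 1.27), the B cell list (6 of 7, 1.38), the dendritic cell list (6 of 6, 1.36), the macrophage list (6, 2.19, with Adgre1 under its older symbol Emr1) and the neutrophil list (4, 4.31, without Ly6g) were called higher. NK cells share Cd247, Lck and Zap70 with T cells, and their defining genes Ncr1 and Klrb1c were at 1.13 to 3.53 and 1.27 to 3.9 FPKM in WT-DES against 0.07 to 0.44 and 0.26 to 0.64 in WT-veh. The part of these cells in the values of the shared genes was not tested. Cd3d, Cd3e and Cd3g, which define T cells, had log2 changes of 2.07, 1.81 and 2.10, against 1.86, 2.02 and 1.68 for the shared Cd247, Lck and Zap70.

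Not all lists had the order of the T cell genes over the WT-DES samples. Added up, the 9 T cell genes were at 30.6, 142.6, 134.3 and 42.1 FPKM in WT-DES samples 1 to 4 and at 7.98 to 17.9 FPKM in the 12 other samples. The NK list (5.92, 22.6, 19.9 and 9 FPKM), the B cell list (6.73, 40.2, 20.9 and 9.23 FPKM, with Ms4a1, a B cell surface gene, at 0.45 to 5.02) and the dendritic cell list (15.2, 39.3, 35.5 and 22.5 FPKM) followed the same order. The macrophage list added up to 225.8, 202.9, 193.6 and 161.6 FPKM, but its genes differed: Csf1r was highest in samples 2 and 3 (44.62, 61.74, 66.01 and 41.07 FPKM) and Cd14 in sample 1 (75.69, 42.14, 26.19 and 38.80 FPKM). Neutrophil genes ran the other way, at 893.5, 106.5, 104.0 and 221.5 FPKM, with S100a8 at 371.29 FPKM in sample 1 and 44.70 to 85.48 in the others. The sample with the lowest sum of the 9 genes was thus the one with the highest neutrophil sum, although sample 4 and not sample 1 was lowest for Tcrd, TCR-alpha chain and TCR-beta chain. The secretory genes added up to 7839, 2436, 4645 and 7951 FPKM, and were lowest in the WT-DES samples with the highest sums of the 9 genes. The part of these differences in the spread of the T cell genes was not tested.

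**Figure D5:**
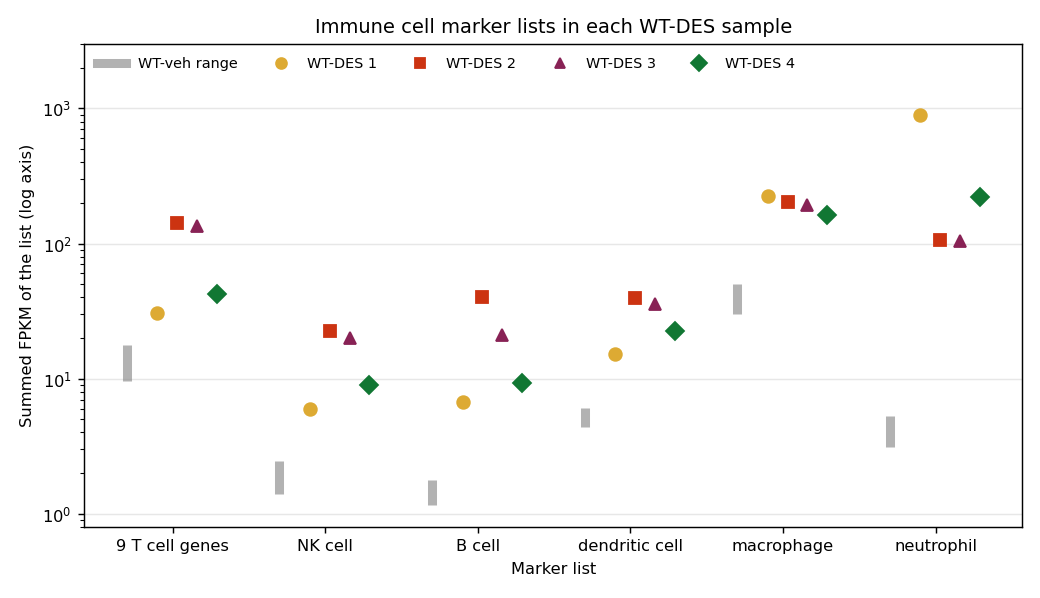
Summed FPKM of the 9 T cell genes and of 5 marker lists in each WT-DES sample, on a log axis, with the range of the 4 WT-veh samples as a grey bar. T, NK, B and dendritic cell sums are highest in samples 2 and 3, whereas the neutrophil sum is highest in sample 1, at 893.5 FPKM.

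By the measure of likeness, the Pearson correlation with the mean of the 9 genes on the log2(FPKM + 1) scale, the closest genes over the 16 samples were Apol7e (0.995), Sh2d2a (0.995), Ms4a4b (0.995), Sit1 (0.994) and Tbx21 (0.993). These values mostly reflect the distance of WT-DES from the other groups. After subtracting group means the closest were Nkg7 (0.984), Ms4a4b (0.982), Stat4 (0.981), Gpr174 (0.981) and Klrk1 (0.980), over the same 16 libraries. Ms4a4b was in both sets, at 3.76, 24.06, 27.84 and 7.20 FPKM in WT-DES and at 0.60 to 1.72 in WT-veh.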

How the data were processed

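SV samples of 4 groups (4 each) were profiled by RNA-Seq on an Illumina HiSeq 2000. Per the labels and the study's methods, the authors aligned reads to mm10 with TopHat2 (version 2.0.4) and obtained the deposited FPKM with Cufflinks (version 2.0.2); the gene annotation of the table and any scaling between libraries are not given in the sources used here. FPKM carry no read counts, so no counting interval could be given, and the number of samples limits the precision.

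FPKM were put on the scale log2(FPKM + 1) and fitted with limma (version 3.58.1, R 4.3.3) with a mean for each group and a variance trend. The spread of each gene was estimated over all groups together. Genes whose mean FPKM exceeded 1 in any group entered the test, and p-values were adjusted by Benjamini-Hochberg over 15988 genes. Calls were made at an adjusted p up to 0.05 with mean FPKM at least 1.5-fold apart; the fit was tested on simulated data. With samples not stated to be separate animals in WT-DES, p-values measure the spread between samples, which may be technical in part. Named genes are the 9 members and, where a result turned on them, the defining genes and the 2 most abundant genes of each list, pathway genes called against their list, up to 4 receptor segments, and the 5 genes most like the members in each measure; the receptor loci were added after their values were seen. The members and lists were chosen with earlier results of these data known. Gene positions are from GENCODE M21 (GRCm38) and promoter windows from RefSeq (GRCm38.p6), in which Cd4 and Cd8b1 are without an entry used here. There were 13 alternative settings, and each sample was left out in turn. The values of some listed genes are not reported here.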

Additional observations from a re-analysis of the deposited data

Results flagged for a closer look

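By an interaction term in limma, the change with DES differed between WT and αERKO for 8 of the 9 genes. Of all tested genes, 29.6% were called higher in this term. After quantile normalization, 5 of the 9 genes were called. The log2 difference was 2.06 for Cd3d, 1.59 for Cd3e, 2.01 for Cd3g and 1.82 for Cd247. It was 2.77 for Cd4, 1.73 for Cd8b1, 2.03 for Lck and 1.55 for Zap70.

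Over 36 sets of 4 samples (9 genes in 4 groups), 2 held a sample far from the other 3 by Dixon's ratio, where chance flags about 1 in 20. Both were WT-veh sample 1: Cd8a was at 1.57 FPKM there (ratio 0.831) and at 0.33 to 0.54 in the other 3, and Cd8b1 was at 1.05 FPKM (ratio 0.897) and at 0.18 to 0.27. The same sample was also the highest of WT-veh for Cd3d, Cd3e, Cd3g, Cd247 and Lck.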

How the results depend on the processing

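Over 13 alternative settings and the 16 samples left out in turn, 0 of 768 values reversed, 16 lost a call and 3 gained one. With DES in WT, 9 T cell genes were called, with 7 to 9 over the alternatives and 8 to 9 with a sample left out; between αERKO-DES and WT-DES it was likewise 9, 7 to 9 and 8 to 9. The lowest count came from a minimum mean FPKM of 5, which leaves out Cd8a and Cd8b1. The interaction was called for 8 genes, for 5 after quantile normalization, and for 8 to 9 with a sample left out. In limma, the 3 comparisons among WT-veh, αERKO-veh and αERKO-DES had 0 calls throughout. Equal totals without the 20 most abundant genes moved the median log2 change of all genes from -0.01 to 0.38 and median-ratio scaling to 0.12, and under each the 9 T cell genes were called higher with DES in WT. At equal totals 6945 genes were higher and 1828 lower, against 4613 and 3815.

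The replicate numbers are shared between groups but did not pair the samples: the correlation of deviations between samples of the same number was -0.21 to 0.28, over 0.1 in 3 of 24 pairs. With the replicate number as a block, the counts stayed at 9 (WT-DES relative to WT-veh), 8 (interaction), 9 (αERKO-DES relative to WT-DES) and 0 in the other 3 comparisons.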
